A study of Mus musculus with 6 samples.

Results

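Obp2a, its chromosome neighbour Bmyc and 6 further genes of the lipocalin fold, Lcn2, Apom, Apod, Rbp4, Ambp and Ptgds, were followed in the livers of Balb/cBy and Balb/c mice. These 8 genes were all found among the 22180 genes that have a probe set with 1 gene symbol. Obp2a and Bmyc were chosen because their levels differed between the substrains in these arrays, so their values are given as a description and without a test. The other 6 were chosen by protein family and were tested. Obp2a, Lcn2, Apom, Apod, Rbp4, Ambp and Ptgds encode lipocalins, and Bmyc encodes a Myc family protein.

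The 6 mice were male and 20 weeks old, 3 Balb/cBy and 3 Balb/c, and each gave 1 array. The series calls Balb/cBy "KD" and Balb/c "WT" without naming a gene in the labels. Balb/cBy is known as an inbred substrain that carries a spontaneous deletion in Acads, the gene of short-chain acyl-CoA dehydrogenase, and it may differ from Balb/c at other loci, so the comparison is between substrains rather than of 1 gene. Mice of both groups had eaten a diet with 58% of its energy from fat for 12 weeks from the age of 8 weeks, in individual cages, and no group on another diet was analysed here. All levels below are log2 RMA values, a scale on which a difference of 1 is a doubling.

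Lipocalins are small, mostly secreted proteins whose β-barrel holds a hydrophobic ligand such as retinol, a sphingolipid, an odorant or a siderophore. Several are made by hepatocytes and circulate in plasma, among them Rbp4, Ambp and Apom. Many of the mouse genes lie side by side on chromosome 2, where a cluster is known for expression in the epididymis and the nasal mucosa. Obp2a, which RefSeq also lists as Lcn13, belongs to that cluster, and in mice its product has been described as a protein secreted by the liver that affects glucose and lipid metabolism. Bmyc lies next to Obp2a and encodes a short protein that resembles the amino-terminal part of Myc and lacks its DNA-binding domain.

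The start regions of Obp2a, its copy Obp2b and Bmyc are shown because Obp2a and Bmyc were both higher in Balb/cBy while Obp2b, on the other side of Bmyc, was dim in both groups. Each window is taken from RefSeq, build GRCm38.p6 of the C57BL/6J strain, and runs from 250 bases before to 50 bases after the annotated start, all 3 on the plus strand of chromosome 2. In the first 2 sequences capitals mark the bases at which the copies differ, and in Bmyc they mark CG dinucleotides.
Obp2a, chr2:25699824-25700123: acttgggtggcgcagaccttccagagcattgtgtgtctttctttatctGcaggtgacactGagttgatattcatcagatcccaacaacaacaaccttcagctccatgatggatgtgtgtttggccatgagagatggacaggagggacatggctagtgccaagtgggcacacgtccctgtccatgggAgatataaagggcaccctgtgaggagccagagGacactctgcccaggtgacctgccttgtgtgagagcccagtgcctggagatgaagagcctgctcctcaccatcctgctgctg
Obp2b, chr2:25736757-25737056: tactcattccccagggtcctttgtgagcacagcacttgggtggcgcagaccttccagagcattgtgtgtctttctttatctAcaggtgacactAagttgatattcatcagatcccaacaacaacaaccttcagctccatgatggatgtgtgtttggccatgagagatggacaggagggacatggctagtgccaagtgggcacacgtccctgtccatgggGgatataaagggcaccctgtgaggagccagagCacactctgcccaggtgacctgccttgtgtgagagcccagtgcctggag
Bmyc, chr2:25706629-25706928: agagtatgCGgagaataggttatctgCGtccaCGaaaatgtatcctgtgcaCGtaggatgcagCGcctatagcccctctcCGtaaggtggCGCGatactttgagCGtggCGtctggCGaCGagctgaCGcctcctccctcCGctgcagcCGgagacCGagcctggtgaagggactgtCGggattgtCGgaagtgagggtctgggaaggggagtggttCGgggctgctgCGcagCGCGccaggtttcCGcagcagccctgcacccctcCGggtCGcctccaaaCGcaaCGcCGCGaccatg

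The windows of Obp2a and Obp2b, set against each other without gaps at a shift of 33 bases, share a stretch of 267 bases in which 263 are identical (98.5%). The 4 differences, written with the Obp2a base first and the Obp2b base last and counted from base 1 of the Obp2a window, are G49A, G61A, A187G and G219C. Both hold the TATA box TATAAA in the shared stretch, 61 bases before the annotated start of Obp2a and 28 bases before that of Obp2b. On either strand, 13.6% of the 32851 windows in the RefSeq table hold this motif. The Bmyc window holds none, and it has 29 CG dinucleotides against 2 in that of Obp2a, where the median over all windows is 7. Of the other motifs searched on both strands, the CCAAT box CCAAT (in 37.4% of windows), the GC box GGGCGG (35.7%), the E-box CACGTG (7.15%) and the STAT site TTCNNNGAA (8.3%), none was present in these windows. These are reference sequences, so they do not show what the Balb/cBy or Balb/c chromosomes hold.

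The arrays were alike over genes. Pairs of arrays had a Pearson correlation over genes of 0.977 to 0.990 within the groups and of 0.978 to 0.992 between the groups. The median level was between 7.98 and 8.03 on every array, which the quantile normalization in RMA largely brings about by itself. Alb, the defining transcript of hepatocytes, read from 14.16 to 14.18 on the Balb/cBy arrays and from 14.17 to 14.22 on the Balb/c arrays. None of the 23521 probe sets tested passed limma's adjusted p threshold of 0.05, and 899 (3.82%) had an unadjusted p under 0.05. As a rough floor, the 95th percentile of the mean levels of 1105 olfactory receptor genes lay at 8.02, and values near or below it may not be told from background. By limma's array weights, Balb/cBy replicate 1 (0.471) and Balb/c replicate 3 (0.635) counted least. Several lipocalins stood apart on Balb/c replicate 3. Differences of Obp2a, Lcn2, the Orm genes, Mup20 and Mup21 are given with and without it. In whole liver RNA, more cells of a type and more RNA per cell cannot be told apart.

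Obp2a showed the largest difference of all 22180 genes, and that difference is why it was chosen. Its level was 13.29, 12.95 and 12.80 on the Balb/cBy arrays, against 8.08, 8.58 and 10.40 on the Balb/c arrays. The Balb/cBy livers were all high and close together, within 0.49 of each other, while the Balb/c livers spread over 2.33. The lowest Balb/cBy array still lay 2.39 above the highest Balb/c array. Balb/c replicate 1 was at the olfactory receptor level, so a true level below it cannot be told there, and Balb/c replicate 3 held a clear signal. The mean was 13.01 ± 0.25 in Balb/cBy and 9.02 ± 1.23 in Balb/c (SD, n = 3 each). The difference of 3.99 ± 0.51 (SE) corresponds to a level 15.9 times higher in Balb/cBy. It was 4.69 without Balb/c replicate 3, and the standard deviation within Balb/c was the 13th largest of all genes. RMA compresses the low end of the scale, which can make such a fold smaller than the true change.

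Bmyc followed the same order of groups with a smaller and tighter difference. Its brighter probe set read 10.95, 11.11 and 11.16 in Balb/cBy, against 10.11, 10.23 and 10.40 in Balb/c. The difference was 0.82 ± 0.11 (SE), or 1.77 times the Balb/c level. A second, dimmer Bmyc probe set read 8.44, 8.84 and 8.58 in Balb/cBy, against 7.78, 8.05 and 8.09 in Balb/c. Its difference was 0.65 ± 0.13 (SE). Both probe sets placed every Balb/cBy array above every Balb/c array, but they measure the same 6 livers. Of all genes, 4.32% showed the same separation upward in Balb/cBy, a background from which nothing is read for Obp2a and Bmyc, since both were chosen on this contrast. In the Balb/c group, Balb/c replicate 3 held the highest value of both genes. Over the 6 arrays the levels of Obp2a and Bmyc had a Pearson correlation of 0.965, a description that mostly reflects the gap between the substrains.

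**Figure D1:**
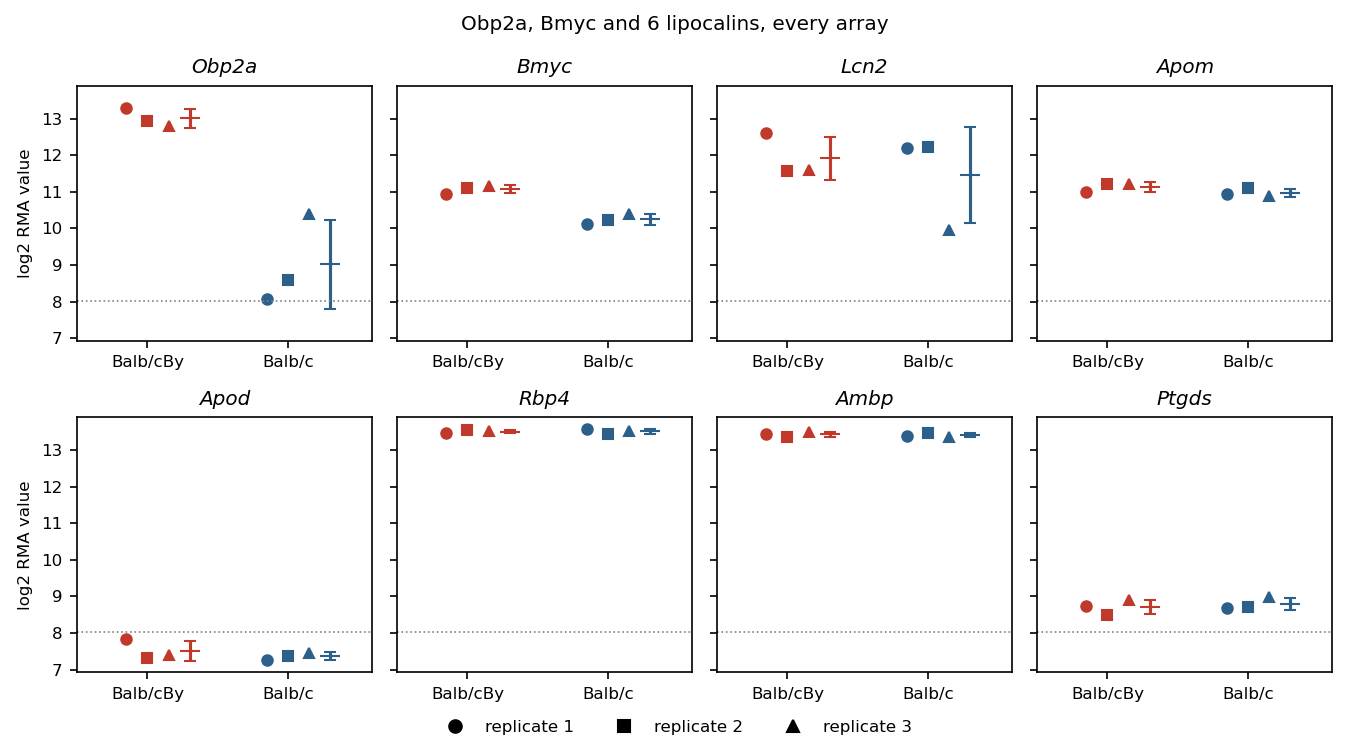
Log2 RMA value of each of the 8 genes (brighter probe set for Bmyc) on every array, Balb/cBy in red and Balb/c in blue, with symbols for the replicates; the bar beside each group is the mean ± SD of 3 arrays and the dotted line is the olfactory receptor level of 8.02. Obp2a and Bmyc separate the groups, Lcn2 spreads widely through Balb/c replicate 3, and the other genes overlap.

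The neighbours of this pair showed smaller differences. In the RefSeq gene table no gene lies between Obp2a and Bmyc, and 12 measured genes were followed on either side. Of these 24 genes, 0 passed limma's adjusted p threshold. An unadjusted p under 0.05 was reached by 3 of the 24, a larger share than the 3.82% of all probe sets. Balb/cBy was the higher group in 17 of these genes and the lower in 7. Their median difference was 0.05, against 0.00 (-0.0028) over all genes. In 2 of the 24 the groups did not overlap, a share close to the 7.83% of all genes. Among the 24 were 8 lipocalin genes, with differences between 0.03 and 0.23, and the groups overlapped in all 8. Lcn10, on the near side of Obp2a, read 8.03, 7.84 and 7.93 in Balb/cBy, against 7.84, 8.004 and 7.75 in Balb/c.

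Obp2b, the copy on the near side of Bmyc, read 7.56, 7.33 and 7.19 in Balb/cBy, against 7.17, 7.40 and 7.33 in Balb/c. It stayed under the olfactory receptor level on every array, with a difference of 0.06 ± 0.12 (SE). Start regions nearly identical over 267 bases thus belong to a gene with the largest difference between the substrains and to a copy that was dim in both. Where the probes of either gene lie, and how far they tell the copies apart, is not stated in the files or labels. The neighbours with the smallest p lay farther out. Camsap1, which binds the minus ends of microtubules, differed by 0.36 ± 0.11 (SE), Fcna, a ficolin of innate immunity, by 0.44 ± 0.15 (SE), and Tmem141, a membrane protein, by 0.37 ± 0.14 (SE). Glt6d1, a glycosyltransferase-like gene, differed by -0.21 ± 0.10 (SE). The adjusted p of limma was above 0.05 for all 4.

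**Figure D2:**
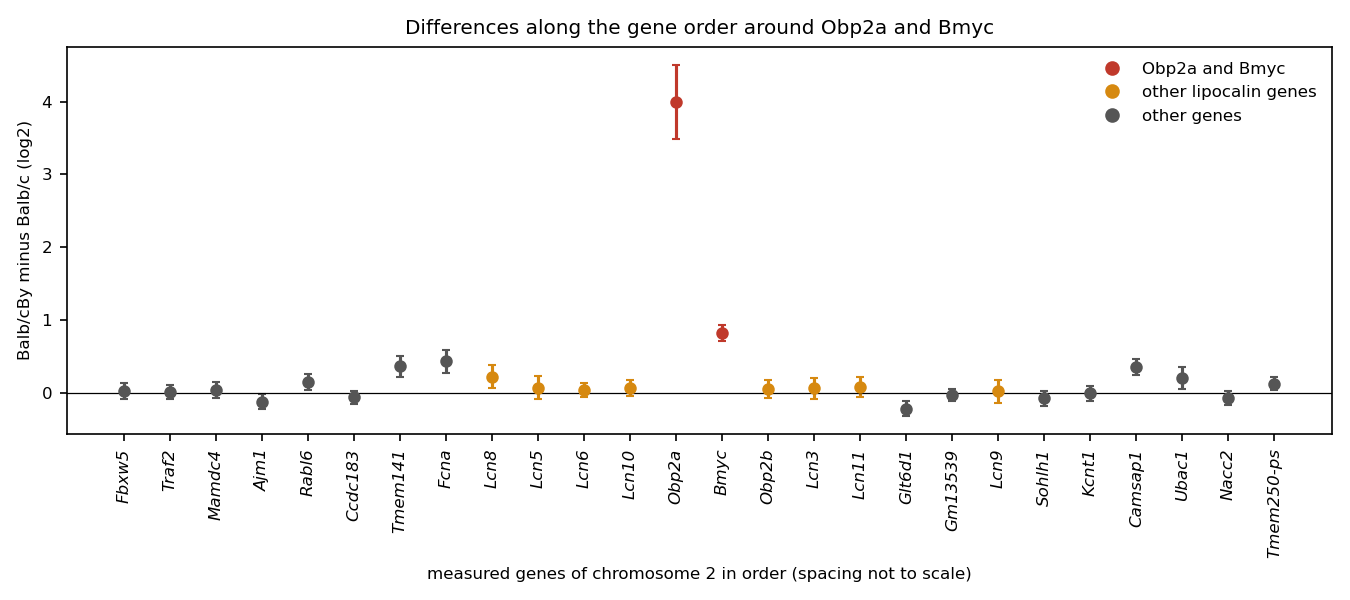
Difference of Balb/cBy minus Balb/c (log2) for Obp2a, Bmyc and 12 measured genes on either side, in chromosome order with equal spacing; points are differences and bars the SE of limma's model over 3 arrays per group. Obp2a at 3.99 and Bmyc at 0.82 stand above 24 neighbours that lie between -0.21 and 0.44.

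Of the 6 lipocalins chosen by family, 0 passed the adjusted p threshold in limma, where 0% of all probe sets did. An unadjusted p under 0.05 was reached by 0 of the 6, against 3.82% of all probe sets. The groups overlapped in all 6, where 7.83% of all genes showed no overlap. The direction was mixed, with 4 higher and 2 lower in Balb/cBy and a median difference of 0.09. The adjusted p was 0.999 for all 6.

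Lcn2 encodes a siderophore-binding protein that hepatocytes make in the acute phase response and that neutrophils store in granules. It read 12.60, 11.56 and 11.61 in Balb/cBy, against 12.20, 12.23 and 9.95 in Balb/c. The groups overlapped, since Balb/c replicates 1 and 2 lay inside the Balb/cBy range and Balb/c replicate 3 far below it. The difference was 0.46 ± 0.59 (SE, 95% interval -0.89 to 1.81), and it turned to -0.29 without Balb/c replicate 3. The standard deviation of Lcn2 within Balb/c, 1.31, was the 11th largest of all genes. On Balb/c replicate 3, however, Obp2a was the highest and Lcn2 the lowest of the 3 Balb/c values, and over the 6 arrays the correlation of these genes was -0.0068.

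Many other acute phase genes, but not all, were also low on that array. Of 25 measured genes on the list of inducible acute phase genes, 17 (68%) had their lowest Balb/c value in Balb/c replicate 3, against 39.5% of all genes. Another 5 (20%) had their highest Balb/c value there, against 32.4% of all genes. These were Crp, the fibrinogen genes Fga, Fgb and Fgg, and Il1r1. The serum amyloid gene Saa2 read 13.78, 12.32 and 12.84 in Balb/cBy, against 13.91, 13.87 and 9.94 in Balb/c. Orm2, an orosomucoid and itself a lipocalin, read 13.29, 12.70 and 12.44 in Balb/cBy, against 13.01, 12.85 and 10.90 in Balb/c. Saa2 and Orm2 were among the 5 genes most like Lcn2 over the 6 arrays. Of the 25 genes, 22 were higher and 3 lower in Balb/cBy. Their differences ran from -1.41 to 1.19, with a median of 0.24, against 0.00 (-0.0028) over all genes. Of them, 0 passed limma's adjusted p, while 5 had an unadjusted p under 0.05, against 3.82% of all probe sets. The list was written with earlier results of these data known, so nothing is read from that share. Without Balb/c replicate 3 the median was 0.15, with 17 higher and 8 lower. On that list the smallest p-values belonged to receptors and to a metalloreductase: Il1r1 differed by 1.19 ± 0.16 (SE), Osmr by 0.76 ± 0.11 (SE), Steap4 by 1.09 ± 0.22 (SE) and Il6st, the shared receptor chain of the interleukin 6 family, by 0.24 ± 0.10 (SE).

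Most neutrophil markers were dim in these livers. Of 12 measured markers, 8 had a mean at or under the olfactory receptor level, and their mean level ran from 7.45 to 7.55 on the Balb/cBy arrays and from 7.28 to 7.44 on the Balb/c arrays. The granule genes Mpo, Ltf and Camp were under that level on every array, while 4 markers, S100a9, Cxcr2, Csf3r and Elane, had a mean over it. S100a9, a calprotectin subunit, read 8.75, 8.31 and 9.20 in Balb/cBy, against 8.73, 8.97 and 8.56 in Balb/c. Balb/cBy was the higher group in 9 of the 12 and the lower in 3, where 49.1% of all genes were higher. Of the 12, 0 passed limma's adjusted p, while 2 had an unadjusted p under 0.05, beside 3.82% of all probe sets. Those with the smallest p were Retnlg at 0.40 ± 0.11 (SE) and S100a8 at 0.29 ± 0.12 (SE), both below the olfactory receptor level in both groups, then Mmp8 at 0.19 ± 0.11 and Ly6g at 0.29 ± 0.18 (SE). Without Balb/c replicate 3, S100a8 differed by 0.18 and Ly6g by 0.11, and the median of the 12 was 0.06 in place of 0.11. Their part in the Lcn2 levels was not tested.

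Of the plasma carriers made by hepatocytes, Rbp4 and Ambp were steady. Rbp4, which carries retinol from the liver bound to transthyretin, read 13.47, 13.55 and 13.52 in Balb/cBy, against 13.57, 13.45 and 13.53 in Balb/c. Its difference was 0.00 (-0.0035 ± 0.088 SE, 95% interval -0.21 to 0.20). Ambp, whose precursor is cut into a microglobulin of the lipocalin fold and the protease inhibitor bikunin, read 13.46, 13.35 and 13.50 in Balb/cBy, against 13.40, 13.47 and 13.37 in Balb/c. Its difference was 0.02 ± 0.09 (SE, 95% interval -0.18 to 0.23). For both genes the intervals exclude a change of 1.5-fold in the array signal, in either direction.

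Apom, the lipocalin of high-density lipoprotein that carries sphingosine 1-phosphate, read 10.99, 11.21 and 11.22 in Balb/cBy, against 10.94, 11.10 and 10.89 in Balb/c. Its difference was 0.17 ± 0.11 (SE, 95% interval -0.08 to 0.41), with overlapping groups. Apod, which binds arachidonic acid and progesterone, read 7.84, 7.32 and 7.39 in Balb/cBy, against 7.26, 7.38 and 7.46 in Balb/c. These values lie under the olfactory receptor level on every array, so no more can be said of Apod than that its signal was dim in both groups. Its difference was 0.15 ± 0.15 (SE), and it came from Balb/cBy replicate 1, without which it was -0.01. Ptgds, the lipocalin that acts as prostaglandin D synthase, read 8.73, 8.50 and 8.90 in Balb/cBy, against 8.69, 8.70 and 8.996 in Balb/c. Its difference was -0.09 ± 0.13 (SE, 95% interval -0.40 to 0.22).

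Partners, receptors and enzymes that serve these carriers showed small differences. Of 29 measured genes, 15 were higher and 14 lower in Balb/cBy, with a median of 0.01. Among them 0 passed limma's adjusted p, while 1 had an unadjusted p under 0.05, beside 3.82% of all probe sets. The median was -0.02 without Balb/c replicate 3. The gene with that p was Stra6l, known in mice as a liver receptor for the retinol-binding protein, with 10.59, 10.45 and 10.28 in Balb/cBy, against 10.05, 10.06 and 10.25 in Balb/c. Its difference was 0.32 ± 0.11 (SE). Ttr, transthyretin, differed by -0.04 ± 0.09 (SE). The groups did not overlap in 4 of the 29, Stra6l, Tnfaip6, Lcat and Ptgdr, where 7.83% of all genes showed no overlap. Lcat, the cholesterol-esterifying enzyme of plasma lipoproteins, differed by 0.14 ± 0.09 (SE). Tnfaip6, which moves heavy chains from bikunin to hyaluronan, differed by 0.30 ± 0.13 (SE) and Ptgdr, a prostaglandin D receptor, by -0.14 ± 0.10 (SE), with a mean of Tnfaip6 under the olfactory receptor level in both groups.

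The Myc network, in which Max pairs with Myc to bind DNA, was read beside Bmyc. Of 14 measured genes, 7 were higher and 7 lower in Balb/cBy, with a median of 0.01. Among them 0 passed limma's adjusted p, while 1 had an unadjusted p under 0.05, beside 3.82% of all probe sets. The median was -0.03 without Balb/cBy replicate 3. The gene with that p, Max, read 9.74, 10.37 and 10.06 in Balb/cBy, against 9.67, 9.40 and 9.57 in Balb/c, a difference of 0.51 ± 0.16 (SE) without overlap. Myc differed by 0.40 ± 0.18 (SE), with Balb/cBy replicate 1 at 8.65 inside the Balb/c range, by 0.61 without that array and by 0.22 without Balb/cBy replicate 2. Mlx, which pairs with glucose-sensing factors, differed by 0.37 ± 0.17 (SE) and Mycn by -0.20 ± 0.11 (SE). The groups did not overlap in 2 of the 14, Max and Mycn, beside 7.83% of all genes.

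The other lipocalin genes of the mouse were listed to place Obp2a among its relatives. Of 42 listed, 21 had a probe set with 1 symbol, and most of those without one were major urinary protein (Mup) genes, whose near-identical copies share probe sets. Of the 21, Balb/cBy was higher in 15 and lower in 6, with a median difference of 0.07. This balance rested on Balb/cBy replicate 1, without which 9 were higher and 12 lower and the median was -0.03. None passed limma's adjusted p and 1, Obp1a, had an unadjusted p under 0.05, beside 3.82% of all probe sets. Its difference was 0.25 ± 0.10 (SE), and its level lay far under the olfactory receptor level in both groups. The groups did not overlap in that gene alone of the 21, against 7.83% of all genes.

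The 12 Lcn and Obp genes on this list read between 5.62 and 8.65 on all arrays, and 8 of them had a mean at or under the olfactory receptor level. Their differences ran from -0.19 to 0.25. C8g, a chain of complement component C8 made by hepatocytes, read 12.78, 12.94 and 13.02 in Balb/cBy, against 12.92, 12.68 and 12.86 in Balb/c. The plasma-borne Orm genes were higher on average in Balb/cBy, by 0.29 ± 0.17 for Orm1, 0.55 ± 0.51 for Orm2 and 1.10 ± 0.53 for Orm3 (SE). All 3 had their lowest Balb/c value in Balb/c replicate 3, against 39.5% of all genes. Without that array the differences were 0.11 for Orm1, -0.12 for Orm2 and 0.58 for Orm3. Without Balb/cBy replicate 1 they were 0.19 for Orm1, 0.31 for Orm2 and 0.76 for Orm3. Orm genes are close copies, so their signals may not be fully separate.

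Mup genes encode urinary carriers of pheromones made by the liver. Of 5 measured, Balb/cBy was higher in 1 and lower in 4. This count rested partly on Balb/c replicate 3, without which Balb/cBy was also higher in Mup5 and Mup20. All 5 had their highest Balb/c value in Balb/c replicate 3, against 32.4% of all genes, and Obp2a had its highest there too. Mup genes are close copies, so the 5 signals may not be fully separate. Mup21 read 9.26, 8.82 and 8.34 in Balb/cBy, against 9.30, 9.20 and 10.99 in Balb/c. Its difference was -1.02 ± 0.45 (SE), and -0.44 without Balb/c replicate 3. Mup20, known as darcin, read 13.64, 12.15 and 12.64 in Balb/cBy, against 12.65, 12.73 and 13.49 in Balb/c. Its difference was -0.15 ± 0.37 (SE), and it turned to 0.12 without Balb/c replicate 3 and to 0.18 without Balb/cBy replicate 2.

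**Figure D3:**
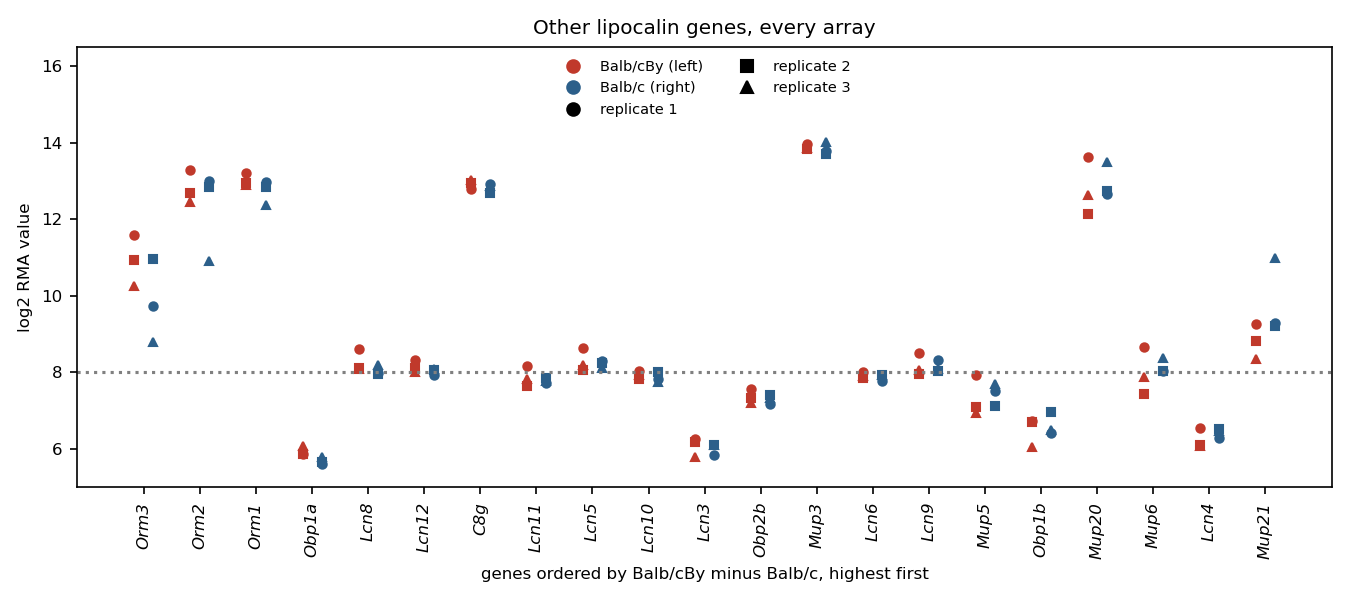
Log2 RMA value of 21 other lipocalin genes on every array, Balb/cBy in red at the left of each gene and Balb/c in blue at the right, with symbols for replicates and the olfactory receptor level of 8.02 as a dotted line. The groups overlap in every gene but Obp1a, and Balb/c replicate 3 (blue triangle) lies lowest in the 3 Orm genes and highest in the 5 Mup genes.

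The genes whose pattern over the arrays was most like those of Obp2a, Bmyc and Lcn2 were then named. Likeness was the Pearson correlation over the 6 arrays, ranked over 4004 named genes above the olfactory receptor level with a range of at least 0.5. Closest to Obp2a were Sel1l (0.988), Ubtd1 (0.983), Hspa5 (0.980), Syvn1 (0.978) and Hyou1 (0.976). Syvn1 and Sel1l form a ubiquitin ligase complex that clears misfolded proteins, Hspa5 and Hyou1 are chaperones, and Ubtd1 is a ubiquitin-like protein. Sel1l read 10.76, 10.76 and 10.69 in Balb/cBy, against 10.22, 10.25 and 10.37 in Balb/c. As in Obp2a, its highest Balb/c value was in Balb/c replicate 3, but its difference of 0.46 ± 0.09 (SE) was far smaller.

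Closest to Bmyc were Manf (0.987), a secreted protein of the stressed endoplasmic reticulum, Syvn1 (0.985), the microtubule-bound ubiquitin ligase Mid1 (0.978), the interferon signalling factor Stat2 (0.975) and Sel1l (0.974). Syvn1 and Sel1l were thus on both lists of 5. In all, 28 genes exceeded 0.9 with Obp2a and 34 with Bmyc, or 0.699% and 0.849% of those ranked. Any gene that parts the substrains cleanly scores high on this measure. Closest to Lcn2 were Orm2 (0.984), the hepatocyte-secreted Fgl1 (0.984), Saa2 (0.980), Tmem176b (0.965) and Tm6sf2 (0.964), a gene of lipoprotein secretion. Fgl1 read 12.62, 11.09 and 11.40 in Balb/cBy, against 11.77, 12.15 and 9.66 in Balb/c, again lowest in Balb/c replicate 3. All 5 had their lowest value of the 6 arrays there, as Lcn2 had.

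**Figure D4:**
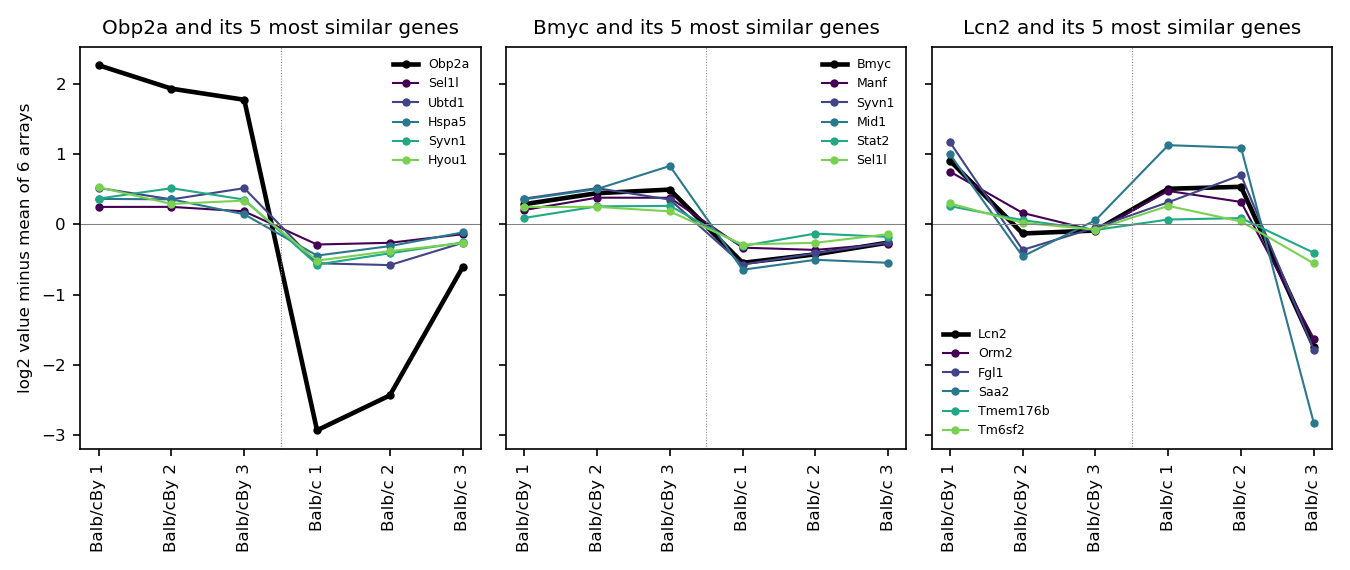
Log2 value minus the gene's mean over the 6 arrays, for Obp2a, Bmyc and Lcn2 (black) and the 5 genes most like each; lines only join the values of a gene across arrays. Obp2a and Bmyc are above 0 on the Balb/cBy arrays and below 0 on the Balb/c arrays, while Lcn2 is lowest on Balb/c replicate 3.

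Markers of other cells and tissues were read on the same arrays, since a piece of liver can hold more than hepatocytes. The 10 measured hepatocyte markers had mean levels from 12.45 to 12.70 in Balb/cBy and from 12.48 to 12.62 in Balb/c. The 10 macrophage markers ran from 9.85 to 10.26 in Balb/cBy and from 9.57 to 10.27 in Balb/c, and the 12 stellate cell and fibroblast markers from 9.41 to 9.68 in Balb/cBy and from 9.15 to 9.51 in Balb/c. The 7 mesothelial markers ran from 7.68 to 7.86 in Balb/cBy and from 7.76 to 8.10 in Balb/c, the 6 adipocyte markers from 7.84 to 8.43 in Balb/cBy and from 7.91 to 8.14 in Balb/c, and the 6 cholangiocyte markers from 7.53 to 7.67 in Balb/cBy and from 7.57 to 7.65 in Balb/c. The 5 exocrine pancreas markers ran from 7.33 to 7.51 in Balb/cBy and from 7.45 to 8.23 in Balb/c. Of these, Ctrb1, a chymotrypsinogen, read 8.19, 8.25 and 8.34 in Balb/cBy, against 8.43, 8.45 and 9.69 in Balb/c, so Balb/c replicate 3 was high in it as it was in Obp2a. Balb/cBy was the higher group in 11 of the 12 stellate cell and fibroblast markers (median difference 0.20). Without Balb/c replicate 3 it was higher in 7 and lower in 5 (median 0.07), and the median was 0.11 without Balb/cBy replicate 3 and 0.37 without Balb/c replicate 1. Among the exocrine pancreas markers all 5 were lower, with a median of -0.33, and without Balb/c replicate 3 the count was 4 lower and 1 higher, with a median of -0.08. None of the markers passed the adjusted p of limma; an unadjusted p under 0.05 was reached by 1 of the hepatocyte, 2 of the macrophage, 3 of the stellate and fibroblast and 1 of the pancreas markers, and by 0 of the mesothelial, adipocyte and cholangiocyte markers, beside 3.82% of all probe sets. The part of any of these cells in the Obp2a and Lcn2 levels was not tested.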

How the data were processed

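Liver RNA was measured on Affymetrix whole-transcript arrays, 1 per mouse. The deposited values are log2, made by the authors with RMA per the submitters' processing notes (background correction, quantile normalization, summary per probe set); the software version and probe annotation are not named in the labels or files. Symbols came from the platform annotation: 23521 probe sets with 1 symbol were tested, and 17824 with several or none were left out. Per gene the probe set with the highest mean was used. Substrains were compared in R 4.3.3 with limma 3.58.1, with the group as the single term, empirical Bayes moderation, two-sided tests and Benjamini-Hochberg adjustment over all 23521. SE and 95% intervals are moderated. No permutation test of 3 against 3 arrays can go below 0.1. The number of arrays limits the precision, and the labels call them biological replicates.

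The members, lists, naming rule and alternatives were chosen with earlier results of these data known. The rule names the 8 genes, up to 4 neighbours and 4 genes per list with the smallest p, any measured lipocalin outside the Mup family, and 5 genes most like each of Obp2a, Bmyc and Lcn2. Genes named after their values were seen are Alb, Saa2, Orm2, Crp, Fga, Fgb, Fgg, Ttr, Mup5, Mup20, Mpo, Ltf, Camp, S100a9, Cxcr2, Csf3r and Elane. Of the marker lists only those beside a result are named. Neighbours and start regions came from RefSeq GRCm38.p6, in which all 8 members matched. The fit was also run on simulated data with independent noise and planted shifts, which checks the code rather than these arrays.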

Additional observations from a re-analysis of the deposited data

How the results depend on the processing

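The direction of the 3.99 of Obp2a and 0.82 of Bmyc was not put to a test, since both were chosen on this contrast. Their groups do not overlap, so leaving out arrays could not turn it. Alternatives that changed only the moderation, the replicate block or which probe sets were tested left both differences unchanged. Over all 16 alternatives the differences ran from 3.52 to 4.69 for Obp2a and from 0.73 to 0.96 for Bmyc. These moves were within the standard deviation of the Balb/c arrays, the wider of the groups for both genes, but reached beyond that of the Balb/cBy arrays (0.25 for Obp2a, 0.11 for Bmyc). None of the 6 lipocalins tested passed the adjusted p threshold of limma in any alternative; for Apod there were 15, since it lies under the olfactory receptor level and has no value where only brighter probe sets were tested. Leaving out 1 array at a time gave 3.52 to 4.69 for Obp2a, 0.75 to 0.90 for Bmyc and 0 of the 6 lipocalins. The number of probe sets past the threshold, 0 with all arrays, was 31 with array weights, 0 to 4 when single arrays were left out (4 without Balb/cBy replicate 1, 2 without Balb/c replicate 3) and 16 without both arrays of lowest weight, an alternative chosen after seeing the data. Lcn2 turned to -0.076 with array weights, -0.29 without Balb/c replicate 3 and -0.63 without both arrays of lowest weight (adjusted p = 0.153 in limma; range over its alternatives 0.153 to 0.99995). The small differences of Apod, Ptgds, Ambp and Rbp4 also changed sign, while Apom kept its sign in all 16 alternatives. Apod was -0.012 without Balb/cBy replicate 1. Ptgds was 0.043 with array weights, 0.018 without Balb/cBy replicate 2, 0.015 without Balb/c replicate 3 and 0.0045 without both arrays. Ambp was -0.039 with renewed quantile normalization, -0.0092 without Balb/cBy replicate 3 and -0.0086 without both arrays. Rbp4 was 0.0053 with median centring, 0.019 without Balb/cBy replicate 1, 0.024 without Balb/c replicate 1, 0.0042 without Balb/c replicate 3 and 0.026 without both arrays. Over the fits without 1 array the differences ran from -0.29 to 0.85 for Lcn2, 0.12 to 0.24 for Apom, -0.012 to 0.24 for Apod, -0.038 to 0.024 for Rbp4, -0.0092 to 0.065 for Ambp and -0.18 to 0.018 for Ptgds. The cause of these changes was not tested, beyond the arrays left out.

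The median of the Myc network list was 0.14 without both arrays, in place of 0.01, and that of the exocrine pancreas markers was -0.08 without Balb/c replicate 3, in place of -0.33. That of the other lipocalins turned to -0.03 without Balb/cBy replicate 1 and -0.04 without both arrays. No scaling moved the median of all genes by more than 0.1. Same-numbered arrays did not deviate together (correlations of -0.32, -0.20 and -0.23), but the labels do not say whether the numbers pair the mice. With the replicate block, 0 probe sets passed. Dim signals limit Obp2a in Balb/c, Apod, Obp2b and most of the Lcn cluster.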
